A study of Homo sapiens with 16 samples.

Results

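The ischemic response of LN229 cells in the presence of VX745 was taken as the difference between ischemic and regular culture when both held this inhibitor of p38α. LN229 is an established human line of glioblastoma (GBM) cells, and ischemic culture combined low nutrients with hypoxia. The response rests on 4 of the 16 libraries of the series, 2 labelled as ischemic culture with VX745 and 2 labelled as regular culture with VX745, and it covered all 14024 genes listed for the second experiment. That experiment also held LN229 cells with DMSO, the solvent control, and with MK25, an inhibitor of MK2, each in regular and in ischemic culture (2 libraries per group, 12 in all). The first experiment held untreated LN229 cells in ischemic and in regular culture (2 libraries each), and it was used here only to choose genes in libraries that share nothing with those of the second. All groups are of 1 cell line, and the labels do not say whether the libraries of a group came from separate cultures, so the p-values measure the spread between these libraries, which may be technical. The labels give no dose and no length of exposure.

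p38α is a stress-activated protein kinase that the kinases MKK3 and MKK6 switch on by phosphorylation. It activates MK2, which stabilizes the mRNAs of many cytokines and other inflammatory mediators that carry AU-rich elements. Loss of oxygen stabilizes the transcription factor HIF, which turns on genes of glucose uptake, glycolysis, pH control and blood vessel growth. Shortage of amino acids and stress in the endoplasmic reticulum (ER) act through ATF4, CHOP and XBP1, which turn on amino acid synthesis, tRNA charging and ER chaperones. VX745 blocks the kinase activity of p38α, so the level of the *MAPK14* mRNA, which encodes p38α, is no check of inhibition.

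The listed genes held 23818522 and 21529408 reads in the regular and 33704896 and 31694666 reads in the ischemic VX745 libraries, within a range of 20122017 to 37562668 over the 12 libraries. A gene with 3 reads, taken as the floor of detection, had a log2 normalized CPM (reads scaled to a common library size, on a log2 scale) between −2.71 and −2.23. The 10 most abundant genes held 4.23% to 6.32% of the reads. In every group the spread between replicates was above sampling noise. For VX745, chi-square divided by the number of genes was 3.29 in ischemic and 5.85 in regular culture. Of 12 genes used to check for glioma cells, 9 were listed, *VIM*, *NES*, *CD44* and *SOX2* among them, and *CDKN2A*, *PROM1* and *CHI3L1* were not. Of 14 markers of other cell types 3 were listed, *CD68* and *SYT1* among them.

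In the presence of VX745, 1302 genes were higher in ischemic than in regular culture by at least 2-fold at an adjusted p under 0.05 (9.28% of the genes tested), and 730 were lower (5.21%). These 2 criteria are meant below where a gene rose or fell. In bulk RNA a change in every cell and a change in the share of cells, dying cells included, cannot be told apart. Of the genes that rose, 331 rose by at least 2 on the log2 scale, 132 by at least 3 and 41 by at least 4, whereas 79, 16 and 10 genes fell by as much. In 37 of the genes that rose both regular libraries were at or under the floor, and in 10 of the genes that fell both ischemic libraries were. The test was limma on the log2 values, with Benjamini-Hochberg adjustment of the p-values for all genes. With quantile normalization the genes higher made up 54.84% of all regulated genes, compared to 64.07% with the deposited scaling.

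Where the mean log2 value was 3 or more, the largest rises were those of *ANGPTL4*, *ADM* and *NDRG1*. *ANGPTL4* encodes a secreted inhibitor of lipoprotein lipase (chromosome 19 of GRCh38, 8364155 to 8374370). It had a log2 normalized CPM of 7.41 and 7.37 in the ischemic and of 0.82 and 1.05 in the regular VX745 libraries, a rise of 6.45 on the log2 scale (standard error 0.09, 87.7-fold, adjusted p = 5.62e-19 from limma). *ADM* encodes adrenomedullin, a vasodilator peptide (chromosome 11, 10305073 to 10307397), and it went from 3.90 and 4.05 to 9.98 and 9.85, a rise of 5.94 (standard error 0.08). *NDRG1*, a stress-responsive gene on chromosome 8 (133237175 to 133297252), went from 5.12 and 5.19 to 10.92 and 10.87, a rise of 5.73 (standard error 0.06). For these 3 genes the ischemic libraries lay far above the regular libraries, and replicates differed by 0.23 or less. *DEPP1*, *PPFIA4*, *BHLHE40*, *GDF15* and *SLC2A3* followed with log2 rises of 4.77, 4.75, 4.56, 4.31 and 4.23. *BHLHE40* encodes a repressor of clock genes, *GDF15* a secreted stress cytokine and *SLC2A3* the glucose transporter GLUT3.

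Where the mean log2 value was 3 or more, *TXNIP* fell most. It encodes an inhibitor of thioredoxin and of glucose uptake that is itself kept up by glucose (chromosome 1, 145992435 to 145996579). Its log2 normalized CPM was 2.65 and 2.49 in the ischemic and 6.15 and 6.26 in the regular libraries, a fall with a log2 value of −3.64 (standard error 0.09, limma adjusted p = 5.05e-16). *ADAMTS15*, which encodes a secreted protease, had 2.68 and 2.95 compared to 5.46 and 5.54, and *HSPA8*, which encodes the constitutive cytosolic chaperone HSC70, had 8.83 and 8.73 compared to 11.43 and 11.42. Their log2 fold changes were −2.68 (standard error 0.10) and −2.65 (standard error 0.06), and in each gene the 2 cultures did not overlap. *SNN*, *SOX2*, *CDC25A*, *CCNE1* and *AMD1* followed with −2.45, −2.35, −2.30, −2.25 and −2.24. *SOX2* encodes a neural stem cell factor, *CDC25A* and *CCNE1* the phosphatase and the cyclin that drive entry into S phase, and *AMD1* an enzyme of polyamine synthesis.

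**Figure D1:**
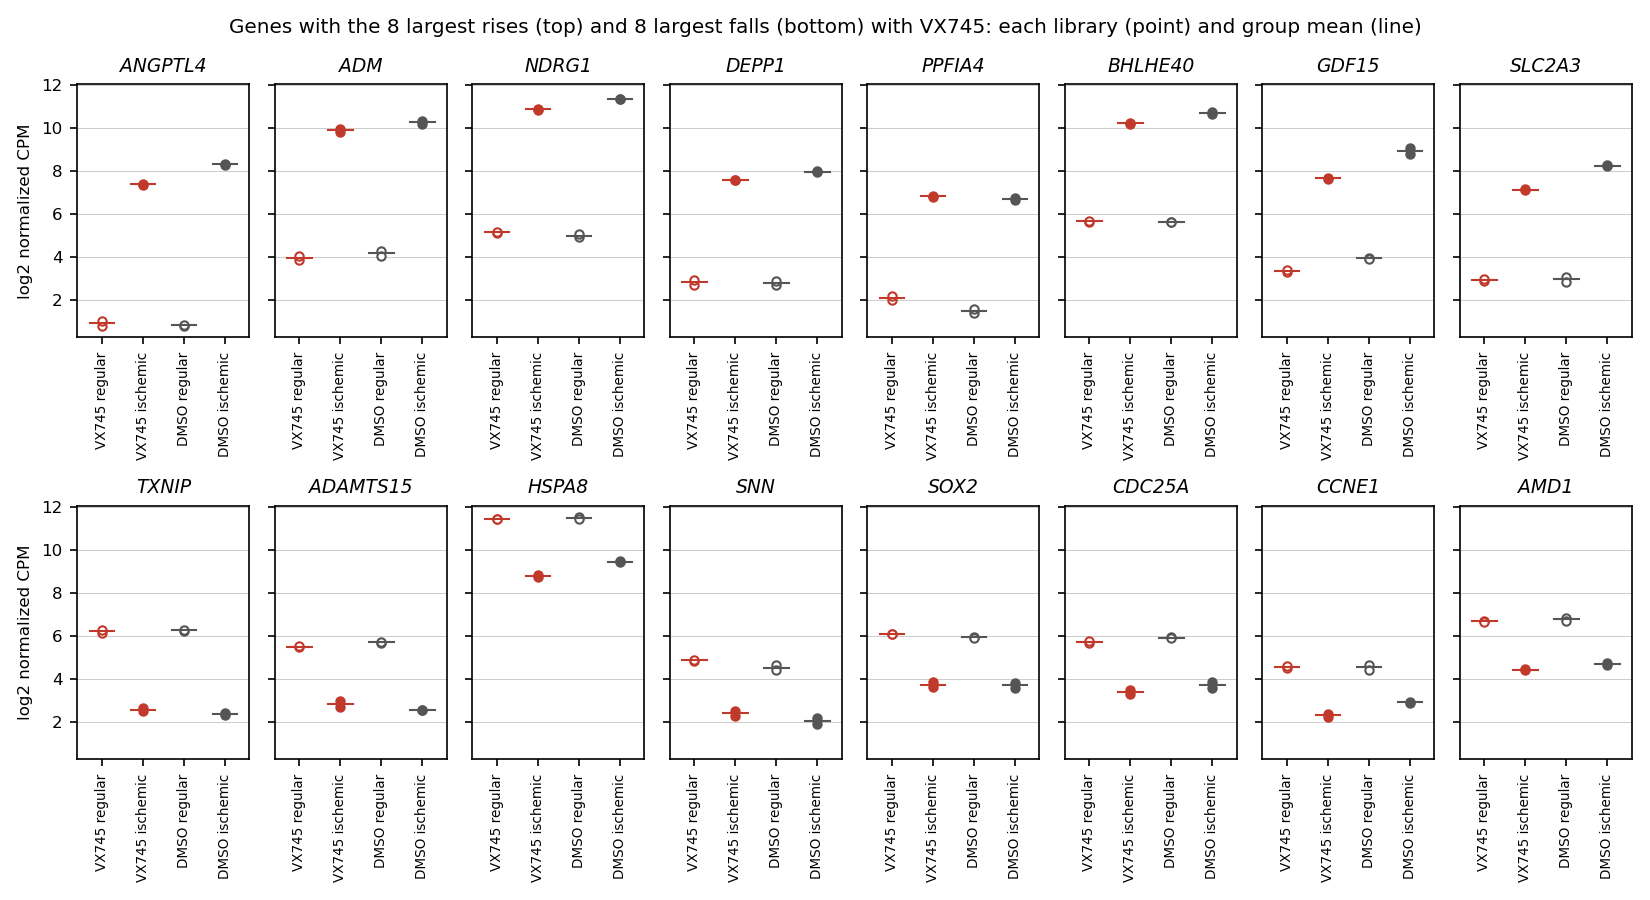
Log2 normalized CPM of the 8 genes with the largest rises (top row) and the 8 with the largest falls (bottom row) with VX745 among genes whose mean log2 value was 3 or more, where open points are regular libraries, filled points ischemic libraries, short lines the group means, and red and grey mark VX745 and DMSO. In each gene the filled red points lie apart from the open red points, from 7.41 and 7.37 against 0.82 and 1.05 for *ANGPTL4* at the left to 4.43 and 4.44 against 6.70 and 6.65 for *AMD1* at the lower right.

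The response with DMSO, which shares no library with the response with VX745, was the comparison for what was kept. With DMSO, 1267 genes rose (9.03%) and 1138 fell (8.11%). Of the genes that rose with VX745, 987 also rose with DMSO, which is 75.81% of the former and 77.9% of the latter. Of the genes that fell, 587 were shared, which is 80.41% of those that fell with VX745 and 51.58% of those that fell with DMSO. The 730 genes that fell with VX745 became 810 with centred libraries and 942 with quantile normalization. The counts with DMSO and the overlap were not rerun, so these shares hold for the deposited scaling only. The correlation of the 2 responses across the 14024 genes was r = 0.90, given as a description, since genes are not independent replicates and share base composition and counting. The difference between the responses was tested in the same fit as an interaction. The response was higher with VX745 than with DMSO in 811 genes (5.78%) and lower in 842 (6.0%) at an adjusted p under 0.05 and any size of difference. Most of these differences were small, since 330 and 103 reached 1.5-fold. These counts moved with 1 library or setting far more than those of the response itself. Without ischemic VX745 replicate 1 they were 327 and 274, without its replicate 2 they were 420 and 366, and without ischemic DMSO replicates 1 and 2 they were 407 and 332, and 692 and 491. Without regular VX745 replicate 1 they were 411 and 429, and without regular DMSO replicate 2 they were 448 and 443. Quantile normalization gave 590 and 436. Centring each library on its median gave 724 and 1070, so the share of higher calls went from 49.06% to 40.36%, and quantile normalization gave 57.5%.

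**Figure D2:**
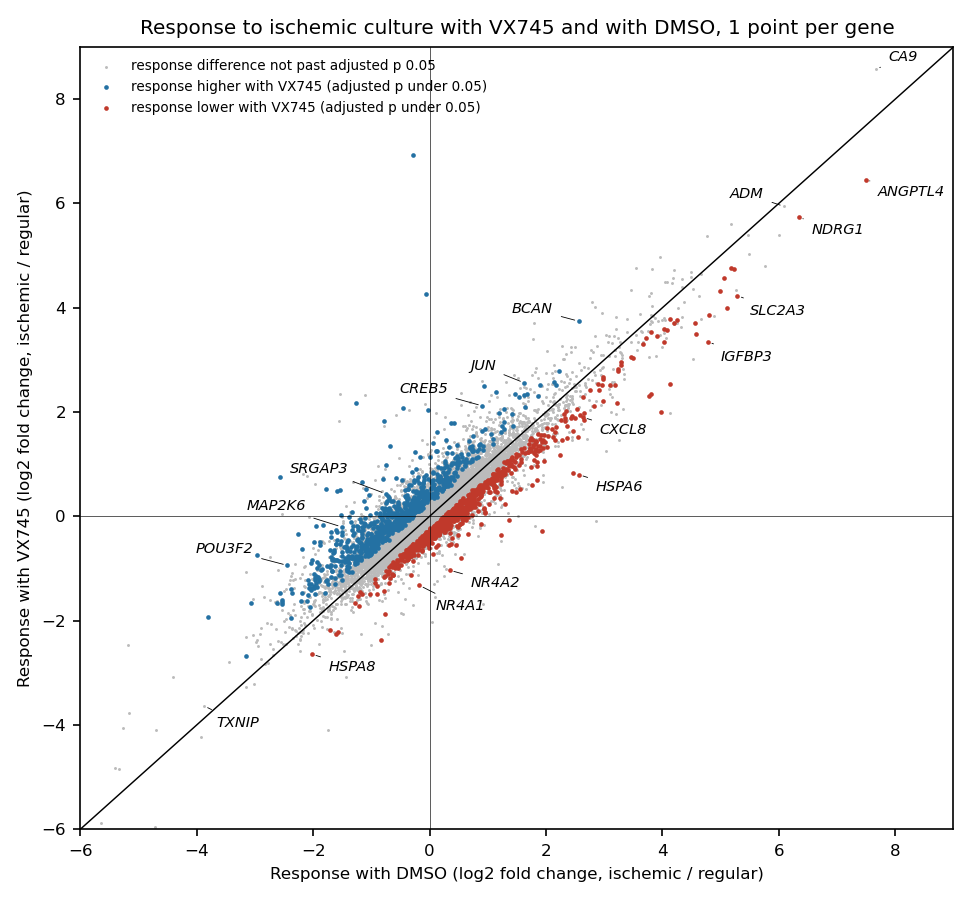
Log2 fold change of ischemic against regular culture with DMSO (x axis) and with VX745 (y axis), 1 point per gene, where the line marks equal responses, blue and red mark genes whose response was higher or lower with VX745 at an adjusted p under 0.05, and 3 genes lie outside the axes. The genes follow the line (r = 0.90 across genes), red points lie below it at the upper right, as for *ANGPTL4* with 7.49 and 6.45, and blue points lie above it at the left, as for *POU3F2* with −2.45 and −0.94.

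Genes chosen in the untreated libraries gave a view that neither treatment of the second experiment had a part in. Of 1499 genes that were at least 2-fold higher in untreated ischemic cells at an adjusted p under 0.05, 1489 were also higher on average in ischemic culture with VX745, and 970 rose there (64.71%), compared to 1021 with DMSO (68.11%). Their median response was 1.22 on the log2 scale with VX745, 1.26 with DMSO and 1.13 with MK25, and the median difference between VX745 and DMSO was −0.08, compared to 0.01 over all genes. The response was smaller with VX745 in 194 of them (12.94%) and larger in 35 (2.33%). Over all genes, 6.0% had a lower and 5.78% a higher response. Counts within this set were not rerun under the alternative settings. The smaller responses were the more frequent the larger the untreated rise was. They made up 10.65% of 1080 genes with an untreated rise of 1 to 2 on the log2 scale, 15.45% of 233 genes at 2 to 3, 18.02% of 111 at 3 to 4 and 30.67% of 75 at 4 or more. In this last group the median response was 3.78 with VX745, 4.08 with DMSO and 3.40 with MK25, and all 75 genes rose with each of VX745 and DMSO. Of the 194 genes with a smaller response, 124 still rose with VX745 and 176 with DMSO, with median responses of 1.24 and 1.77. Only 5 of them had an average below that of regular culture. The 194 were picked by the response difference itself, so a weaker response with VX745 than with DMSO was fixed by the choice.

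Of 1222 genes that were at least 2-fold lower in untreated ischemic cells, 1180 were lower on average with VX745 and 521 fell there (42.64%), compared to 722 with DMSO (59.08%). Their median response was −0.92 with VX745, −1.11 with DMSO and −0.92 with MK25. The fall was weaker with VX745 in 213 genes (17.43%) and stronger in 29 (2.37%), and the median difference was 0.20. Over all genes, 5.78% had a higher response, as in a weaker fall, and 6.0% a lower one. Counts within this set were not rerun under the alternative settings either. Weaker falls made up 17.09% of 1030 genes at an untreated fall of 1 to 2 and 18.52% of 162 at 2 to 3. They made up 30% of 20 genes at 3 to 4 and 10% of 10 at 4 or more. Of the 213, 52 still fell with VX745 and 162 with DMSO, with median responses of −0.64 and −1.33. The 213 were picked by the response difference itself, so a weaker fall with VX745 than with DMSO was fixed by the choice. The median difference for these 1222 genes was 0.10 with quantile normalization and lay between 0.18 and 0.22 with a single library left out.

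**Figure D3:**
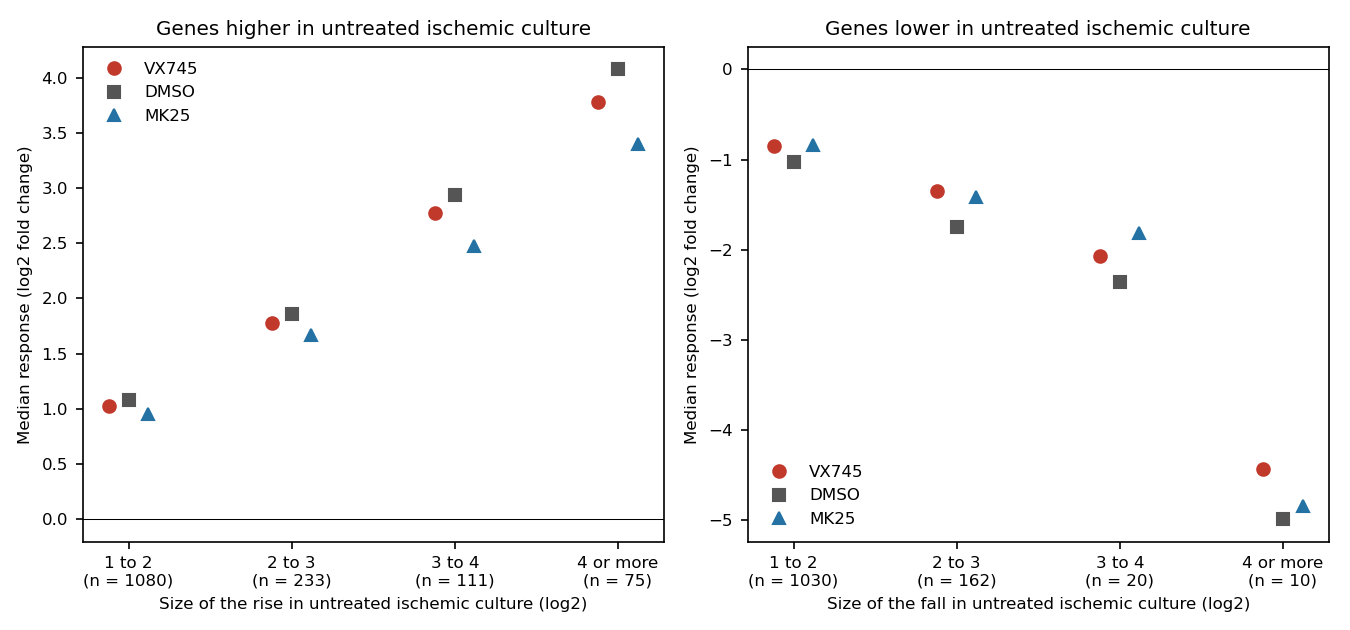
Median log2 fold change of ischemic against regular culture with VX745 (red), DMSO (grey) and MK25 (blue) in genes that were higher (left) or lower (right) in untreated ischemic cells, by the size of the untreated change on the log2 scale, with the number of genes in brackets. The VX745 points lie between 0 and the DMSO points in all 8 groups, as at 3.78 and 4.08 for the 75 genes with the largest untreated rises, and the last group on the right holds 10 genes only.

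The lists of genes described next were ordered by function, and the medians below are of log2 fold changes, with a median over all genes of 0.01 with VX745 and −0.01 with DMSO. Over all genes, 9.28% rose and 5.21% fell with VX745, and 5.78% had a higher and 6.0% a lower response than with DMSO. The counts in each list are to be read beside these shares. HIF targets had the highest median of the 18 lists. Of 26 tested targets, 22 rose with VX745 and none fell, with a median of 3.06, compared to 3.24 with DMSO. *CA9*, which encodes a carbonic anhydrase of the cell surface that handles acid from glycolysis, had 6.90 and 6.86 in the ischemic and −1.37 and −2.01 in the regular VX745 libraries, a rise of 8.57 (standard error 0.38). Its regular libraries held 8 and 4 reads, so the size of this rise is uncertain. *VEGFA*, which encodes the main angiogenic growth factor, went from 5.33 and 5.43 to 8.88 and 8.82, a rise of 3.47 (standard error 0.05). *HILPDA*, which encodes a lipid droplet protein, rose by 3.70, and *BNIP3* and *BNIP3L*, which encode mitophagy receptors, by 3.76 and 3.30. *HIF1A*, which encodes the oxygen-regulated subunit of HIF, had a value of −0.45, and *LOX*, *EGLN3* and *PFKFB3* did not meet both criteria.

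The response was lower with VX745 than with DMSO in 10 of the 26 targets and higher in none, compared to 6.0% and 5.78% of all genes. These were *ANGPTL4*, *ANKRD37*, *DDIT4*, *NDRG1*, *KDM3A*, *BHLHE40*, *HILPDA*, *BNIP3*, *VEGFA* and *BNIP3L*. The calls of *ANGPTL4*, *DDIT4*, *KDM3A* and *NDRG1* held under every alternative setting (here and below, other than the fold threshold and the crossed replicate numbers, which were run for counts only), and 6 were lost under at least 1. *DDIT4*, which encodes an inhibitor of mTORC1, had 11.28 and 11.23 in the ischemic libraries with VX745 and 12.03 and 12.11 with DMSO, while its regular libraries had 7.55 and 7.54 with VX745 and 7.48 and 7.54 with DMSO. The difference between the 2 responses was −0.85 (standard error 0.08, adjusted p = 9.43e-06 from limma). VX745 and DMSO differed by 0.03 in regular and by −0.82 in ischemic culture. *ANGPTL4* had 8.31 and 8.34 in the ischemic DMSO libraries, above its VX745 values, and a difference of −1.04. *ADM* and *CA9* had differences of −0.15 and 0.90 that did not pass the test.

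HIF binds a site with the core ACGTG. The promoter of *CA9*, the member with the largest rise whose promoter holds the core, is shown for that match, from 250 bases before to 50 bases after the start of the gene (RefSeq, GRCh38.p14, chr9:35673678-35673977, plus strand), with the match to the core, on the minus strand here, in capitals.
CA9: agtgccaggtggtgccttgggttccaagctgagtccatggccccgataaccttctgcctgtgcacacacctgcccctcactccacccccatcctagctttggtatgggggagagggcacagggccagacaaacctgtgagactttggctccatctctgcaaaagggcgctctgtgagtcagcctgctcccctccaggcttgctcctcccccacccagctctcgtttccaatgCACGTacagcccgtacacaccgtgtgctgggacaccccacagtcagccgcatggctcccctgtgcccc
Of 22 targets with a promoter in the reference, 11 held the core on either strand (50%), compared to 26.6% of 11087 tested genes and 21.6% of all 27305 promoters of this length. A match is a description of the letters and not a site shown to be bound.

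Of 20 genes of glucose uptake and glycolysis, 13 rose and none fell with VX745, compared to 9.28% and 5.21% of all genes, with a median of 1.47 (1.74 with DMSO). *SLC2A3* went from 2.88 and 2.97 to 7.12 and 7.18. *PDK1*, which encodes the kinase that keeps pyruvate out of the mitochondria, rose by 4.00, *HK2*, which encodes hexokinase 2, by 3.78 and *ALDOC*, which encodes an aldolase, by 3.54. The response was lower with VX745 in 11 of the 20 and higher in none, compared to 6.0% and 5.78% of all genes. Of these 11 calls, only that of *SLC2A3* held under every alternative setting, and the other 10 were lost under at least 1. *SLC2A3* had the largest difference (−1.06, standard error 0.10), with 8.26 and 8.27 in the ischemic DMSO libraries. The others were *LDHA*, *ALDOA*, *PGK1*, *GAPDH*, *GPI*, *TPI1*, *HK2*, *ENO1*, *ENO2* and *PFKP*, with differences between −0.43 and −0.24. With quantile normalization the difference of *GAPDH* was 0. That method gives genes of equal rank equal values in every library, so such a 0 can arise from rank alone and is no measure of its response. *ALDOA* shares 53.8% of its words of 31 bases with transcripts of other genes.

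Targets of ATF4 and CHOP rose in 21 of 27 cases, with a median of 1.77 (2.02 with DMSO). *GDF15* went from 3.30 and 3.42 to 7.71 and 7.63. *ALDH1L2*, an enzyme of mitochondrial folate metabolism, rose by 3.77, *NUPR1*, a stress-induced chromatin protein, by 3.62 (standard error 0.32) and *TRIB3*, a pseudokinase that feeds back on ATF4, by 3.59. *NUPR1* had few reads in the regular VX745 libraries, so the size of its rise is uncertain. *ATF4* itself went from 8.62 and 8.63 to 9.93 and 9.97, a rise of 1.32. *CHAC1*, which encodes an enzyme that degrades glutathione, fell by 1.04 on the log2 scale. The response was lower with VX745 in 13 of the 27, compared to 6.0% of all genes, and higher in none. The calls of *DDIT3* and *MTHFD2* held under every alternative setting, and 11 were lost under at least 1, that of *ATF4* included. *DDIT3*, which encodes CHOP, had 5.63 and 5.64 in the ischemic VX745 libraries, 6.49 and 6.58 in the ischemic DMSO libraries, while the 4 regular libraries lay between 4.65 and 4.75. Its response was 0.96 with VX745 and 1.84 with DMSO, a difference of −0.88 (standard error 0.11, adjusted p = 0.000214 from limma). *CTH*, *GDF15*, *SESN2*, *MTHFD2*, *ATF4*, *TRIB3*, *GARS1*, *SHMT2*, *PHGDH*, *VLDLR*, *ASNS* and *PSPH* were the others, with differences between −0.69 and −0.31. *PPP1R15A*, which encodes the subunit that ends the block of translation, rose by 3.08 with VX745 and by 3.08 with DMSO, with a difference of 0.00 (standard error 0.10).

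ATF4 with a C/EBP partner binds the composite site TGATGNAA. The promoter of *ASNS*, which encodes asparagine synthetase and rose by 2.66, is shown since it has the largest rise in this list among those that hold the site (RefSeq, GRCh38.p14, chr7:97872359-97872658, minus strand), with the match in capitals.
ASNS: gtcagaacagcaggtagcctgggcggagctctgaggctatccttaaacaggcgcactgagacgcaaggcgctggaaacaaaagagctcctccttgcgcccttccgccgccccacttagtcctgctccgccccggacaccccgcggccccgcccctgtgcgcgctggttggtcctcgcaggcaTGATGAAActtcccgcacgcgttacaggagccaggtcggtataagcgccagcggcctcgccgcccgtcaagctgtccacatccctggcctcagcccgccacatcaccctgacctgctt
The site was in 5 of 22 promoters of the list (22.7%), in 4.08% of 957 promoters of genes that rose with VX745, in 1.79% of those of the genes tested and in 3.67% of all promoters.

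Of 22 genes of ER chaperones and stress sensors, 4 rose with VX745 and none fell, and the median was 0.19 (0.32 with DMSO). *XBP1*, which encodes the factor spliced by IRE1α, went from 5.93 and 5.80 to 7.72 and 7.78 (8.38 and 8.47 in the ischemic DMSO libraries). *ERN1*, which encodes IRE1α, went from 2.71 and 2.77 to 4.64 and 4.59, a rise of 1.88 with a difference from DMSO of −0.19 that did not pass the test. *DNAJB9* and *HERPUD1*, which encode an ER co-chaperone and a protein of ER-associated degradation, rose by 1.33 and 1.29. The response was lower with VX745 in *XBP1* (−0.55), *HSPA5* (−0.45), *MANF*, *ATF6* and *PDIA6*, and of these calls only that of *XBP1* held under every alternative setting. *HSPA5* encodes the chaperone BiP and had a response of 0.31 with VX745 and 0.76 with DMSO.

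**Figure D4:**
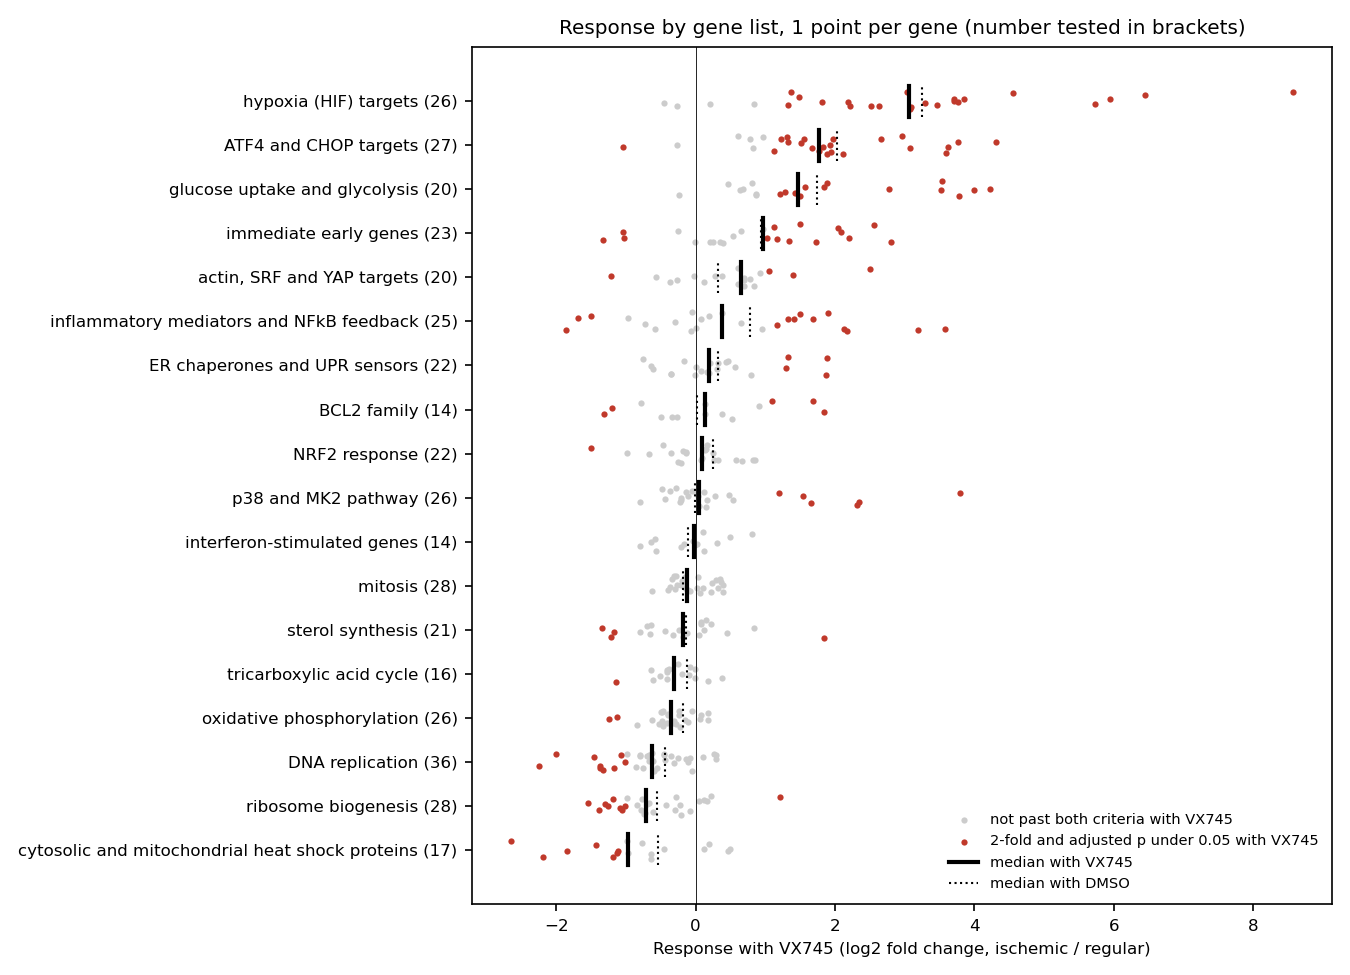
Log2 fold change of ischemic against regular culture with VX745 for each tested gene of 18 lists, with red points past both criteria, a thick line at the median with VX745 and a dotted line at the median with DMSO. The medians run from 3.06 for the hypoxia list to −0.97 for the heat shock proteins, and the dotted lines lie further to the right for the 3 lists at the top.

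Genes of the p38 and MK2 pathway were of interest since VX745 acts on this pathway. Among the kinases, none rose or fell with VX745. *MAPK14* had 6.16 and 6.16 in the ischemic and 6.25 and 6.28 in the regular VX745 libraries, and 5.78 and 5.76 compared to 6.24 and 6.21 with DMSO. Its response was −0.11 with VX745 and −0.45 with DMSO, a difference of 0.35 (standard error 0.08, limma adjusted p = 0.00984). Of the genes of kinases above it, *MAP2K3* and *MAP2K6* moved in the same way. *MAP2K4*, *MAP3K5* and *MAP3K7* had no called difference. *MAP2K3*, which encodes MKK3, had 6.20 and 6.22 compared to 6.39 and 6.46 with VX745, and 5.41 and 5.39 compared to 6.34 and 6.27 with DMSO. *MAP2K6*, which encodes MKK6, had 4.32 and 4.35 compared to 4.52 and 4.56 with VX745, and 2.02 and 2.21 compared to 3.67 and 3.57 with DMSO. The differences were 0.69 (standard error 0.09) and 1.30 (standard error 0.14), and in both genes the ischemic DMSO libraries lay below all others. *MAP2K6* was also 0.92 higher with VX745 than with DMSO in regular culture (adjusted p = 0.000268 from limma).

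Of all 26 tested genes of the pathway, the response was higher with VX745 in 9, compared to 5.78% of all genes. This adds *TAB1*, *RPS6KA4*, *DUSP16*, *GADD45A*, *GADD45B* and *ZFP36L2* to the 3 kinases. The response was lower in *DUSP10* alone, compared to 6.0% of all genes. Of the 9 calls, those of *MAPK14*, *MAP2K3*, *MAP2K6*, *GADD45A* and *ZFP36L2* held under every alternative setting. The call of *DUSP10* did not. *DUSP1*, *GADD45A*, *GADD45B*, *ZFP36*, *DUSP10* and *ZFP36L1* rose with VX745. *DUSP1* encodes a phosphatase that inactivates p38, and its rise was 3.80 with VX745 and 3.87 with DMSO. *GADD45A*, which encodes a stress sensor that can activate p38, went from 5.23 and 5.24 to 7.61 and 7.54, above 6.71 and 7.03 in the ischemic DMSO libraries. *ZFP36L2*, which encodes a protein that binds AU-rich elements and speeds mRNA decay, stayed at 6.12 and 6.08 compared to 6.02 and 6.11 with VX745, while it had 5.55 and 5.72 compared to 6.34 and 6.47 with DMSO.

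Inflammatory mediators and NFkB feedback genes rose in 10 of 25 cases and fell in 3, with a median of 0.38 (0.77 with DMSO). *TNF* and *CXCL2* were not listed. *PTGS2*, which encodes cyclooxygenase 2, went from 2.02 and 2.04 to 5.62 and 5.59 with VX745, and from 2.67 and 2.54 to 6.65 and 6.71 with DMSO. Its response was thus smaller with VX745 by 0.50, and its level was lower with VX745 in both cultures. *CXCL8*, which encodes interleukin 8, had 7.48 and 7.46 compared to 5.61 and 5.54 with VX745, and 8.91 and 8.81 compared to 6.23 and 6.21 with DMSO, a difference between responses of −0.74 (standard error 0.12, adjusted p = 0.00115 from limma). *IL1B* rose by 1.33 with VX745 and by 1.69 with DMSO, and this difference did not pass the test. *TNFAIP3*, which encodes the NFkB inhibitor A20, rose by 3.19 with each. *CCL2*, *CXCL1* and *NFKBIZ* fell by 1.86, 1.69 and 1.5 on the log2 scale.

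In 8 of the 25 genes the response was lower with VX745, compared to 6.0% of all genes, and in none was it higher. The calls of *CXCL8* and *IL11* held under every alternative setting, and 6 were lost under at least 1. Besides *CXCL8* and *PTGS2* these were *IL11*, *CSF2*, *ICAM1*, *PI3*, *NFKBIZ* and *NFKB1*. *CSF2*, which encodes the growth factor GM-CSF, had 95 and 95 reads in the ischemic libraries with VX745 and 186 and 164 with DMSO, compared to 14 to 21 reads in the 4 regular libraries. *PI3*, which encodes the protease inhibitor elafin, had 26 and 26 reads in the ischemic and 30 and 14 in the regular VX745 libraries, and 54 and 47 compared to 19 and 19 with DMSO. With this depth its difference was −1.44 with a standard error of 0.46. *TGFB1*, which encodes the growth factor TGF-β1, had log2 fold changes of −0.58 and −0.57.

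AP-1 binds TGANTCA. The promoter of *CXCL8* is shown since its response difference was the lowest among called inflammatory and immediate early genes whose promoter holds this site (RefSeq, GRCh38.p14, chr4:73740319-73740618, plus strand), with the match in capitals.
CXCL8: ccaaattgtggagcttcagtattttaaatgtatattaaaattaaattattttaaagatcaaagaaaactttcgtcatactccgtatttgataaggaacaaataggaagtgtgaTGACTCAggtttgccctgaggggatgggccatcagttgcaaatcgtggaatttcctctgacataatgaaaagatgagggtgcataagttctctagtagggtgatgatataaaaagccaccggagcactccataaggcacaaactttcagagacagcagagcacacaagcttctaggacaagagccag
AP-1 matches were in 3 of 20 promoters of the inflammatory list (15%), in 8.05% of 957 promoters of genes that rose with VX745 and in 2.78% of 540 of genes that fell, compared to 4.71% of those of the genes tested and 7.76% of all promoters. They were in 6.55% of the promoters of genes with a lower and in 4.75% of those with a higher response with VX745.

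Immediate early genes split. Of 23, 11 rose with VX745 and 3 fell, compared to 9.28% and 5.21% of all genes. *DUSP5*, which encodes a phosphatase of ERK, rose by 2.80, *JUN* by 2.56, *FOSL2* by 2.21, *KLF6* by 2.09 and *EGR1* by 2.04. *JUN*, which encodes a subunit of AP-1, went from 6.82 and 6.89 to 9.52 and 9.31 with VX745, and from 7.01 and 6.99 to 8.47 and 8.78 with DMSO, so its response was higher with VX745 by 0.93 (standard error 0.12, adjusted p = 0.000232 from limma). *KLF6* was also higher, by 0.45. *NR4A1* and *NR4A2*, which encode orphan nuclear receptors, fell with VX745 and did not with DMSO. *NR4A1* had 5.54 and 5.39 in the ischemic VX745 libraries and between 6.75 and 7.10 in all other libraries with VX745 or DMSO. *NR4A2* had 3.69 and 3.69 in the ischemic VX745 libraries, 4.71 and 4.74 in the regular VX745 libraries, 5.09 and 5.17 in the ischemic DMSO libraries and 4.67 and 4.89 in the regular DMSO libraries. Their response differences were −1.15 and −1.38. *EGR2* had a difference of −0.66, and of the called differences in this list only that of *EGR2* was lost under an alternative setting.

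Of 17 cytosolic and mitochondrial heat shock proteins, 7 fell with VX745 and none rose, compared to 3 that fell and 1 that rose with DMSO, and the medians were −0.97 and −0.54. *HSPA1A* and *HSPA1B* were not listed for the second experiment and so are not among them. *DNAJA1*, *HSPH1*, *HSPE1*, *CHORDC1*, *HSPA4* and *HSP90AA1* fell by 2.19, 1.84, 1.43, 1.18, 1.13 and 1.12 on the log2 scale, besides *HSPA8*. In 12 of the 17 the response was lower with VX745, compared to 6.0% of all genes, and in none was it higher. The calls of *HSPA8* and *STIP1* held under every alternative setting, and 10 were lost under at least 1. These were *HSPA8*, *DNAJB1*, *HSPE1*, *CHORDC1*, *DNAJA1*, *HSP90AA1*, *STIP1*, *HSP90AB1*, *AHSA1*, *HSPA9*, *HSPD1* and *FKBP4*. *HSPA8* had 9.43 and 9.47 in the ischemic DMSO libraries, above its VX745 values, and 11.50 and 11.44 in the regular ones. *DNAJB1* and *HSPA6*, a stress-induced chaperone gene outside the list, were uneven between the ischemic VX745 libraries, with 8.94 and 8.30 for *DNAJB1* and 4.27 and 3.11 for *HSPA6*. Their responses were 0.49 and 0.80 with VX745 and 1.41 and 2.57 with DMSO. *HSPA6* shares 57.1% of its words of 31 bases with transcripts of other genes, and how reads shared between genes were counted is not given in the sources used here.

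Genes of the NRF2 response, which protects from oxidants, stood near 0 with VX745, with a median of 0.08 (0.25 with DMSO). None rose and only *PRDX1*, which encodes a peroxiredoxin, fell (−1.5). The response was lower with VX745 in 8 of 22, namely *HMOX1*, *AKR1C1*, *SQSTM1*, *FTL*, *FTH1*, *TXNRD1*, *PRDX1* and *PGD*, compared to 6.0% of all genes. Only the call of *HMOX1* held under every alternative setting. *HMOX1*, which encodes heme oxygenase 1, had 3.69 and 3.66 in the ischemic and 3.51 and 3.55 in the regular VX745 libraries, compared to 4.30 and 4.39 and to 3.35 and 3.46 with DMSO. *FTH1* shares 63.6% of its words of 31 bases with transcripts of other genes. Of 21 sterol synthesis genes, 3 fell with VX745, compared to 5.21% of all genes. Among them was *IDI1*, which encodes an isomerase of the pathway, with a fall of 1.22 on the log2 scale. *INSIG1*, which encodes the protein that holds back sterol synthesis, rose by 1.84 with VX745 and by 2.65 with DMSO, a difference of −0.81.

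Of 36 genes of DNA replication, 9 fell with VX745 and none rose, compared to 5.21% and 9.28% of all genes. The median was −0.63 (−0.44 with DMSO). *CCNE1*, *CCNE2*, *FEN1* and *PCNA* fell by 2.25, 2.01, 1.46 and 1.38 on the log2 scale. The response was lower with VX745 in *CCNE1*, *FEN1*, *CDC45* and *RRM2*, and none of these 4 calls held under every alternative setting. Of 28 mitosis genes none rose or fell, the median was −0.13, and only *ASPM* had a response that differed (0.48), a call lost under at least 1 alternative setting. Ribosome biogenesis genes fell in 8 of 28 cases, *NOP56*, *NOP2* and *RRS1* the most, with a median of −0.71 (−0.55 with DMSO). *PPAN* rose by 1.21 with VX745, and its difference of 0.90 rests on ischemic DMSO libraries that differ from each other (3.30 and 4.01). *RRP9*, *NOP14* and *WDR12* had a lower and *RRS1* a higher response with VX745. None of these calls, nor that of *PPAN*, held under every alternative setting. Of 26 genes of oxidative phosphorylation, *ATP5MC1* and *COX7B* fell (−1.24 and −1.13), a share near the 5.21% of all genes. The response was lower with VX745 in 5 of the 26, compared to 6.0% of all genes. *COX7B*, *COX4I1*, *NDUFB8* and *NDUFA9* were among them, and each of these 4 calls was lost under an alternative setting. Of 16 genes of the tricarboxylic acid cycle *IDH3A* fell (−1.14), and *IDH3G* had a lower response with VX745 (−0.45), a call lost under at least 1 alternative setting.

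Genes of survival and of the cytoskeleton included some with a higher response. Of 14 genes of the BCL2 family, *BBC3*, *BCL2A1* and *MCL1* rose with VX745 by 1.84, 1.68 and 1.10, and *BID* and *BCL2L11* fell by 1.32 and 1.19 on the log2 scale. Over all genes, 9.28% rose and 5.21% fell. *BBC3* and *BCL2L11* encode BH3-only proteins that promote apoptosis, as does *BID*, whereas *BCL2A1* and *MCL1* encode proteins that protect from it. The response was higher with VX745 in *BCL2A1* (0.73) and *MCL1* (0.37), and only the call of *MCL1* held under every alternative setting. *MCL1* had 9.58 and 9.60 in the ischemic libraries with VX745 and 9.46 and 9.54 with DMSO, and 8.48 and 8.50 compared to 8.72 and 8.81 in the regular libraries. VX745 and DMSO thus differed by −0.27 in regular and by 0.09 in ischemic culture. Of 20 genes of actin, SRF and YAP, 3 rose with VX745, *CCN1* and *AMOTL2* among them, compared to 9.28% of all genes. Only *THBS1* fell, a share near the 5.21% of all genes. The response was higher in *CCN2* (0.98), *AMOTL2* (0.79) and *CCN1* (0.61), and lower in *ACTG1* (−0.48) and *TPM4* (−0.34). The calls of *CCN1* and *TPM4* were lost under at least 1 alternative setting. *CCN1*, *CCN2* and *AMOTL2* are known targets of YAP. *CCN2* had 6.27 and 6.31 in the ischemic and 5.53 and 5.65 in the regular VX745 libraries, while the ischemic DMSO libraries, at 5.43 and 5.50, lay below the regular ones at 5.73 and 5.75. Of 14 interferon-stimulated genes none rose or fell with VX745, and *IFIT1* had a higher response (−0.64 compared to −2.19 with DMSO), a call lost under at least 1 alternative setting.

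Over all tested genes, the lowest response differences, at a mean log2 value of 3 or more, were those of *HSPA6*, *IGFBP3*, *NR4A2*, *NR4A1*, *SPRR2D*, *SLC2A3*, *GPRC5A* and *ANGPTL4*. Of these calls only that of *HSPA6* was lost under an alternative setting. *IGFBP3*, which encodes a protein that binds insulin-like growth factors, had 7.38 and 7.42 in the ischemic and 4.13 and 3.97 in the regular VX745 libraries, compared to 9.08 and 9.02 and to 4.24 and 4.29 with DMSO. It rose 10.2-fold with VX745, and its difference was −1.44 (standard error 0.09, adjusted p = 1.23e-07 from limma). *SPRR2D*, a gene of the epithelial barrier, went from 0.46 and 1.02 to 4.17 and 4.28 with VX745 and to 5.76 and 5.93 from 1.22 and 1.32 with DMSO. *GPRC5A*, which encodes an orphan receptor, went from 6.13 and 6.36 to 7.78 and 7.74 with VX745, while it reached 9.09 and 9.08 with DMSO. In *IGFBP3*, *SPRR2D* and *GPRC5A* the ischemic VX745 libraries lay between the regular libraries of both treatments and the ischemic DMSO libraries, and in *NR4A1* and *NR4A2* they lay below all of these.

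The highest response differences included *POU3F2*, *MAP2K6*, *FJX1*, *CREB5*, *SRGAP3* and *BCAN*. *POU3F2*, which encodes a neural transcription factor, had 2.91 and 2.84 compared to 3.87 and 3.77 with VX745, and 1.72 and 1.57 compared to 4.24 and 3.93 with DMSO, a difference of 1.5 (standard error 0.17). *CREB5*, which encodes a factor of the ATF family, rose by 2.12 with VX745 and had a response of 0.91 with DMSO. *SRGAP3* had 4.07 and 4.04 in the ischemic libraries with VX745 and 2.40 and 2.45 with DMSO, and between 3.08 and 3.76 in the regular ones. *BCAN*, which encodes the brain proteoglycan brevican, rose by 3.74 with VX745 and by 2.56 with DMSO. *EIF3CL* had a larger difference, 2.61, that is uncertain. It had 2710 and 332 reads in the 2 ischemic VX745 libraries and shares 98.4% of its words of 31 bases with transcripts of other genes.

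**Figure D5:**
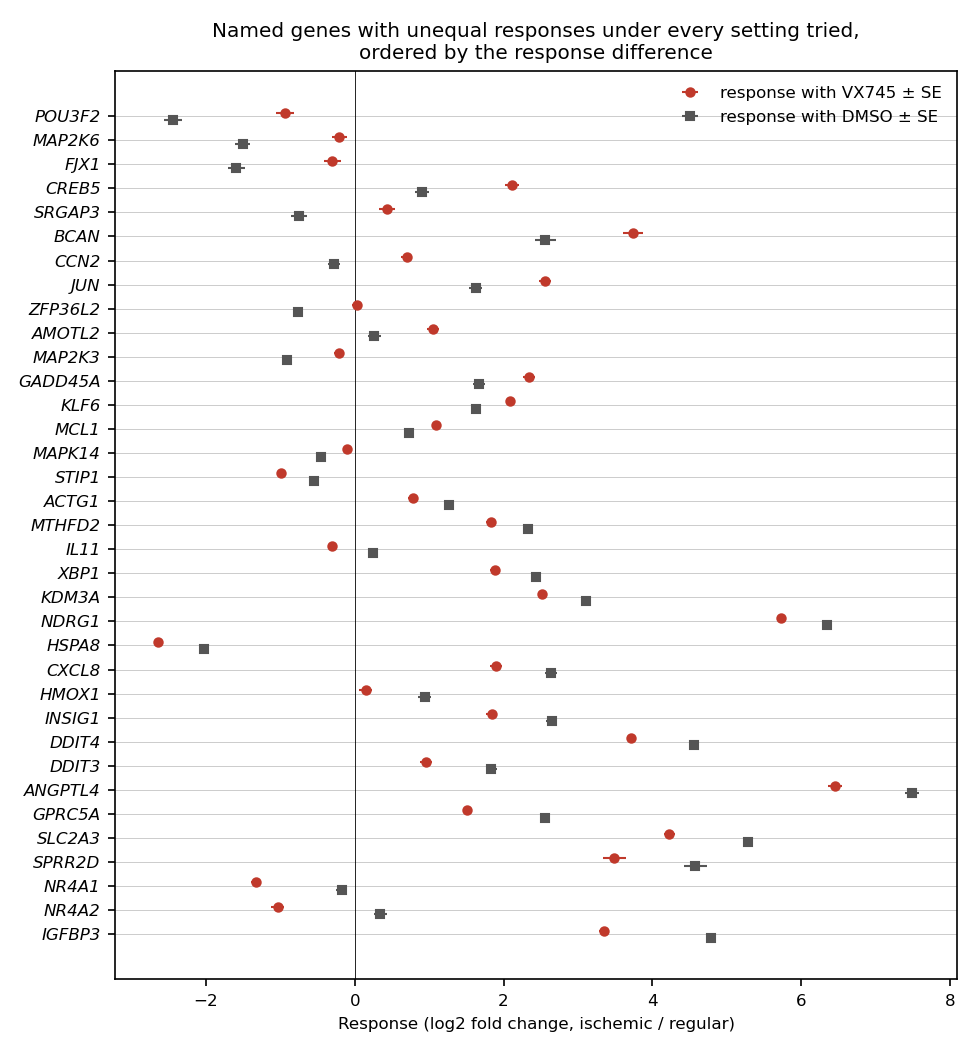
Log2 fold change of ischemic against regular culture with VX745 (red) and DMSO (grey), with standard errors, for the 35 named genes whose response difference was past an adjusted p of 0.05 under every alternative setting run gene by gene, ordered by that difference. At the top, from *POU3F2* (−0.94 and −2.45) to *MAPK14*, the red points lie to the right, and at the bottom, to *IGFBP3* (3.35 and 4.78), they lie to the left.

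The response with VX745 was also set against that with MK25, which was measured in other libraries of the same experiment. It was higher with VX745 in 502 genes (3.58%) and lower in 178 (1.27%). No MK25 library was left out in turn. The calls of single genes against MK25, and so the counts by list below, were not rerun under any alternative setting. The compounds act on neighbouring kinases of 1 pathway, and as the labels give no dose, the comparison is one of the treatments as labelled. Of the HIF targets, 16 of 26 had a higher response with VX745 than with MK25 and 1, *HILPDA*, a lower one, and the median with MK25 was 2.19. *CA9* had 7.32 and 7.27 in the ischemic MK25 libraries, close to its levels with VX745, but 2.14 and 2.30 in the regular MK25 libraries, well above the −1.37 and −2.01 with VX745. Of the ATF4 and CHOP targets 18 of 27 and of the glycolysis genes 10 of 20 had a higher response with VX745, and none a lower one. Of 21 sterol synthesis genes, 14 had a higher response with VX745 and none a lower one, with medians of −0.19 and −0.86. *HMGCS1*, which encodes a synthase early in the pathway, had 4.51 and 4.62 compared to 5.23 and 5.20 with VX745, and 5.84 and 5.87 compared to 7.88 and 8.03 with MK25, so that its level was higher with MK25 in both cultures.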

How the data were processed

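RNA of LN229 cells was sequenced in 16 libraries, of which the 12 of the second experiment were fitted together. Per the labels, libraries were made with a SMART-Seq mRNA kit and a Nextera XT kit, and the submitters' processing notes name HISAT2, edgeR and GRCh38. The authors deposited log2 normalized CPM per gene, listed by Entrez identifier, in which the counts are scaled to an effective library size and carry a small offset. The counting program is not given in the sources used here. Undoing the logarithm gave whole reads for 100% of the values in each library (tolerance 0.05 of a read), with an offset of 1.49 to 2.62 reads in the second experiment, so that fold changes of genes with few reads are understated. Floors cover counting error only, since the reads carry no molecular identifiers.

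The deposited log2 values were used with no further normalization. limma (version 3.58.1 in R 4.3.3) was fitted with 1 mean per group over the 12 libraries, with the variance following the mean level. Tests were two-sided and adjusted by the Benjamini-Hochberg method over 14024 genes. A response was called when it was at least 2-fold with an adjusted p under 0.05, and a difference between responses by that p alone. Genes changed in untreated cells were chosen by the same criteria in a separate fit of the first experiment. The fit was tested on simulated data whose changes were larger than most of the response differences reported here. That test does not cover differences as small as those. The comparisons and the gene lists were chosen with earlier results of these data known.

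The genes named are the 8 largest rises, falls and response differences in each direction among called genes whose mean log2 value was 3 or more (for rises and falls, with both ischemic libraries beyond both regular ones), the list members with the largest changes or a called difference, and genes that the study's text names. A few genes that meet these rules are not reported here. Symbols matched 99.3% of the identifiers, and positions and promoters are those of RefSeq (GRCh38.p14). A gene was taken to share reads with a copy when at least 50% of its transcripts' words of 31 bases occur on 261 alternate scaffolds or in transcripts of other genes, which held for 12 of 441 genes checked. Motifs were searched on both strands of promoters, 1 per gene. The alternatives were another fold change threshold, centred or quantile-normalized libraries, genes of 1 CPM or more on average only, no variance trend, a replicate block, only the groups compared, voom on the recovered reads, and each VX745 and DMSO library left out in turn. Python 3.11.15 was used for lists and figures.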

Additional observations from a re-analysis of the deposited data

Results flagged for a closer look

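The results in this part were picked out since the response to ischemic culture differed between VX745 and another treatment by the test of the difference itself, the interaction in the limma fit at an adjusted p under 0.05. The response was higher with VX745 than with DMSO in 811 genes and lower in 842, and higher than with MK25 in 502 genes and lower in 178. Each value below is the response with VX745 minus the response with DMSO on the log2 scale, for the genes that the text names. No group holds the 4 libraries that a search for outlying libraries needs. Among HIF targets the differences were −1.04 for *ANGPTL4*, −0.95 for *ANKRD37*, −0.85 for *DDIT4*, −0.61 for *NDRG1*, −0.59 for *KDM3A*, −0.50 for *BHLHE40*, −0.49 for *HILPDA*, −0.48 for *BNIP3*, −0.45 for *VEGFA* and −0.38 for *BNIP3L*. Among genes of glucose uptake and glycolysis the differences were −1.06 for *SLC2A3*, −0.43 for *ALDOA*, −0.43 for *LDHA*, −0.41 for *PGK1*, −0.40 for *GAPDH*, −0.40 for *GPI*, −0.34 for *TPI1*, −0.34 for *HK2*, −0.30 for *ENO1*, −0.27 for *ENO2* and −0.24 for *PFKP*. Among targets of ATF4 and CHOP the differences were −0.88 for *DDIT3*, −0.69 for *CTH*, −0.67 for *GDF15*, −0.52 for *SESN2*, −0.51 for *MTHFD2*, −0.45 for *ATF4*, −0.43 for *GARS1*, −0.43 for *TRIB3*, −0.35 for *SHMT2*, −0.34 for *PHGDH*, −0.33 for *VLDLR*, −0.32 for *ASNS* and −0.31 for *PSPH*. Among ER chaperones and stress sensors the differences were −0.55 for *XBP1*, −0.45 for *HSPA5*, −0.38 for *MANF*, −0.29 for *ATF6* and −0.24 for *PDIA6*. Among heat shock proteins the differences were −0.92 for *DNAJB1*, −0.65 for *HSPE1*, −0.62 for *HSPA8*, −0.50 for *CHORDC1*, −0.48 for *DNAJA1*, −0.46 for *HSP90AA1*, −0.45 for *STIP1*, −0.37 for *HSP90AB1*, −0.36 for *AHSA1*, −0.34 for *HSPA9*, −0.31 for *HSPD1* and −0.27 for *FKBP4*. Among genes of the NRF2 response the differences were −0.79 for *HMOX1*, −0.65 for *AKR1C1*, −0.44 for *SQSTM1*, −0.43 for *FTL*, −0.43 for *FTH1*, −0.37 for *TXNRD1*, −0.33 for *PRDX1* and −0.26 for *PGD*. Among inflammatory mediators the differences were −1.44 for *PI3*, −1.05 for *CSF2*, −0.74 for *CXCL8*, −0.60 for *NFKBIZ*, −0.55 for *IL11*, −0.50 for *PTGS2*, −0.37 for *NFKB1* and −0.32 for *ICAM1*. Among genes of oxidative phosphorylation the differences were −0.50 for *COX7B*, −0.45 for *COX4I1*, −0.39 for *NDUFB8* and −0.35 for *NDUFA9*. Among genes of DNA replication the differences were −0.63 for *CCNE1*, −0.41 for *RRM2*, −0.30 for *CDC45* and −0.27 for *FEN1*. In the p38 and MK2 pathway they were −0.49 for *DUSP10*, 0.30 for *TAB1*, 0.31 for *RPS6KA4*, 0.35 for *MAPK14*, 0.52 for *DUSP16*, 0.67 for *GADD45A*, 0.69 for *MAP2K3*, 0.70 for *GADD45B*, 0.80 for *ZFP36L2* and 1.30 for *MAP2K6*. Immediate early genes had −1.38 for *NR4A2*, −1.15 for *NR4A1*, −0.66 for *EGR2*, 0.45 for *KLF6* and 0.93 for *JUN*. Genes of actin, SRF and YAP and of the BCL2 family had −0.48 for *ACTG1*, −0.34 for *TPM4*, 0.61 for *CCN1*, 0.79 for *AMOTL2*, 0.98 for *CCN2*, 0.37 for *MCL1* and 0.73 for *BCL2A1*. In the lists of ribosome biogenesis, sterol synthesis, the tricarboxylic acid cycle, mitosis and interferon-stimulated genes the values were −0.43 for *RRP9*, −0.36 for *NOP14*, −0.29 for *WDR12*, 0.32 for *RRS1*, 0.90 for *PPAN*, −0.81 for *INSIG1*, −0.45 for *IDH3G*, 0.48 for *ASPM* and 1.55 for *IFIT1*. Of the genes used to check for glioma cells, the values were 0.29 for *NES* and 0.77 for *OLIG2*, so both had a higher response with VX745. Genes in no list had −1.77 for *HSPA6*, −1.44 for *IGFBP3*, −1.09 for *SPRR2D*, −1.04 for *GPRC5A*, −0.48 for *PPFIA4*, −0.42 for *DEPP1*, 0.47 for *ADAMTS15*, 1.18 for *BCAN*, 1.18 for *SRGAP3*, 1.21 for *CREB5*, 1.29 for *FJX1* and 1.5 for *POU3F2*. The value of 2.61 for *EIF3CL* is that of a gene with near-identical copies whose replicates disagree.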

How the results depend on the processing

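The counts of genes that rose or fell with VX745 (1302 and 730) were 2598 and 2029 at 1.5-fold and stayed within 1.5 times under the other alternatives. They were 1144 and 942 with quantile normalization, 1227 and 810 with centred libraries, 1102 and 608 with genes of 1 CPM or more only, and 1249 to 1336 and 715 to 733 with a single library left out. The counts of genes with a higher or lower response than with DMSO were less stable. They were 330 and 103 at a difference of at least 1.5-fold and 384 and 210 without letting the variance follow the mean level. Leaving out each library in turn gave 327 to 941 higher and 274 to 1097 lower. Quantile normalization gave 436 lower. The median difference in genes higher in untreated ischemic cells was −0.11 with libraries centred on their median and −0.101 to −0.0657 with a library left out, and in genes lower there it was 0.18 with centred libraries, 0.10 with quantile normalization and 0.18 to 0.22 with a library left out. The cause of these shifts was not tested. Of 121 named genes with a response difference past an adjusted p of 0.05, 35 stayed past it under every alternative run gene by gene, as did 135 of 148 named genes with a response past it. Voom on the recovered reads gave 1328 and 756 for the response, and 724 and 790 for the difference. The comparison with MK25 gave 430 and 239 with quantile normalization. Replicate numbers are all that the libraries of different groups share in the labels, and replicate differences of ischemic and regular VX745 libraries correlated at r = −0.12 across 10053 genes. Over all pairs of groups r ran from −0.266 (ischemic DMSO and ischemic MK25) to 0.325 (ischemic and regular MK25). With the replicate number as a block the counts were 1305 and 730 for the response, 799 and 858 for the difference from DMSO, and 492 and 180 for that from MK25. With the numbers crossed, an alternative chosen after seeing the data, they were 1303 and 730, and 875 and 919. Depth limits the genes near the floor of 3 reads, such as *NUPR1* with 8 and 5 reads in the regular VX745 libraries.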
